A study of Mus musculus with 18 samples.

Results

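The genes described here are 10 nucleic acid sensors and their closest partners: *Cgas* and *Sting1*, the DNA sensor and its adaptor; *Rigi*, *Ifih1* and *Mavs*, the cytosolic RNA sensors and their shared adaptor; *Tlr3*, the endosomal RNA sensor; *Zbp1* and *Eif2ak2*, which bind Z-form and double-stranded nucleic acids; and *Adar* and *Trex1*, an RNA editor and a DNA exonuclease that remove or disguise the cell's own ligands. They were taken by Entrez gene ID, with *Cgas* also known as Mb21d1, *Sting1* as Tmem173 and *Rigi* as Ddx58. The 10 were among 24100 genes in each of the deposited tables, and all 10 were present in both.

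RNA was measured in C3H/10T1/2 cells, an established line of mouse mesenchymal progenitor cells (MPCs), with an intact or disrupted *Atrx* gene, which encodes a chromatin remodeller. The labels give 3 lines: *Atrx* wild-type (WT) and 1 *Atrx* knockout (KO) clone for each of the guides sg5 and sg6. By the methods of the study, WT received the Cas9 plasmid without a guide. All 3 lines share the C3H/10T1/2 parent and carry no other engineered change or treatment in the labels. Each line had 3 polyA-selected and 3 rRNA-depleted libraries, so every n = 3 is a number of libraries from the same line. Nothing in the labels says that they came from separate cultures, and the effect of *Atrx* cannot be told apart from other differences between these lines.

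Cells recognise foreign or misplaced nucleic acids through a small set of receptors. cGAS binds DNA in the cytosol and makes a cyclic dinucleotide that activates STING, whereas RIG-I and MDA5 (the *Ifih1* product) bind double-stranded RNA and signal through MAVS. Both routes converge on the kinase TBK1 and the transcription factor IRF3, which induce type I interferon, and interferon in turn raises many of the sensors, the OAS enzymes and other interferon-stimulated genes through ISRE elements in their promoters.

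To show the sequence element that ties several of these genes to interferon, promoter windows of 300 bases (250 before and 50 after the annotated start) were read from RefSeq on GRCm38.p6. Windows were found for 8 of the 10 genes, and *Sting1* and *Zbp1* were not matched. The ISRE core, here GAAA, any 2 bases and GAAA again, was sought on both strands. It was present in 3 of the 11 windows, those of *Rigi*, *Ifih1* and *Eif2ak2*, and in 3.44% of 32851 windows of all genes. It began 2 bases after the start in *Rigi*, where it lay on the minus strand of the window, 32 bases after the start in *Ifih1* and 18 bases after the start in *Eif2ak2*. Only exact matches were counted, so a window without one can hold a near match, such as gaaagtgaac in a window of *Adar*. The matches, in capitals below, overlapped no match to the palindromic GAS motif TTCNNNGAA, which 8.30% of all windows held and which was found once each in a window of *Adar* and of *Eif2ak2*. These 3 windows are shown because they share the element while the RNA of their genes differed from WT to unlike degrees. They were picked with those values known, and whether the element relates to the values was not tested.
Rigi, chr4:40239776-40240075, minus strand: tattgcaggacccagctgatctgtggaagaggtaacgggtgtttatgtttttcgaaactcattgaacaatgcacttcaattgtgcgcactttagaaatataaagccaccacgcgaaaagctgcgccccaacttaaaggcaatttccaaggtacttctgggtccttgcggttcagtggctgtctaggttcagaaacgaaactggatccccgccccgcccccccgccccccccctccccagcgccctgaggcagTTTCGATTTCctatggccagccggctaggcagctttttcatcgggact
Ifih1, chr2:62646206-62646505, minus strand: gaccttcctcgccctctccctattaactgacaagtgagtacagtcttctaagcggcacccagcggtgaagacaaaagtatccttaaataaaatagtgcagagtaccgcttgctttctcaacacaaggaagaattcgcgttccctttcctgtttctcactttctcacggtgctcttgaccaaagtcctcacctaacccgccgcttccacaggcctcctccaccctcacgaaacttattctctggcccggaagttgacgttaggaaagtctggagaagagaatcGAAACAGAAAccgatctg
Eif2ak2, chr17:78882523-78882822, minus strand: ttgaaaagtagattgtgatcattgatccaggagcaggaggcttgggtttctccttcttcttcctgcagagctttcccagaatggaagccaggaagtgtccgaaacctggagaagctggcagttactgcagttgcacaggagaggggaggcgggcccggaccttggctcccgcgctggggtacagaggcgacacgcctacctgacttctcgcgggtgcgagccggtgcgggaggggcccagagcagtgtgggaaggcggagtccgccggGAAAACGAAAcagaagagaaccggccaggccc

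Total counts ran from 27544833 to 80772108 in the polyA libraries of WT, from 161036799 to 235346363 in sg5 and from 58918732 to 71896907 in sg6. Except for WT replicate 1, these polyA totals lay above the average read number per sample that the methods give, most of all in sg5. In the rRNA-depleted libraries totals ran from 20135336 to 33187136, of which 10.4% to 15.5% fell on transposable element loci. *Atrx* RNA was 2.36-fold lower in sg5 and 2.30-fold lower in sg6 in polyA libraries, and all KO libraries of both kinds lay below all WT libraries. Levels are given as TMM-scaled counts-per-million values (CPM). Of 10 mesenchymal markers (*Col1a1*, *Vim*, *Thy1* and others), 8 or 9, depending on the line, had a mean of at least 1 CPM, and their summed polyA level was 17193 to 19093 CPM in WT, 18767 to 19600.4 CPM in sg5 and 23565.5 to 26240.6 CPM in sg6. In rRNA-depleted libraries this sum was 4105 to 5254 CPM in WT, 6351 to 8659.5 CPM in sg5 and 6941 to 8705 CPM in sg6, higher in both clones without overlap. Markers of other cell types were low: the summed level of 7 macrophage genes was 14.4 to 21.7 CPM in the WT polyA libraries, 7.34 to 8.44 CPM in sg5 and 8.34 to 10.7 CPM in sg6, mostly from *Lyz2* and *Cd68*, while *Ptprc*, the common leukocyte antigen, had at most 7 counts in any library. In rRNA-depleted libraries the macrophage sum was 14.5 to 29.6 CPM in WT, 6.92 to 8.41 CPM in sg5 and 3.99 to 11.3 CPM in sg6. The 3 endothelial markers summed to at most 0.767 CPM. The 2 epithelial markers also summed higher in WT polyA libraries (2.54 to 4.86 CPM) than in sg5 (0.827 to 1.61 CPM) and sg6 (0.281 to 0.562 CPM), almost wholly from *Cdh1*. The macrophage and epithelial sums thus lay lower in both clones, as *Sting1* did, and their part in the results below was not tested.

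In WT MPCs the 10 genes spanned a wide range in level per length of exon, with all the others far above *Zbp1* and *Ifih1*. On the scale of CPM per kilobase of merged exons, the polyA means in WT were 17.4 ± 1.08 for *Eif2ak2*, 15.4 ± 3.42 for *Rigi*, 12.4 ± 0.747 for *Mavs*, 9.65 ± 2.51 for *Trex1* and 6.96 ± 0.624 for *Adar* (SD, n = 3). Next came *Sting1* at 4.49 ± 0.751, *Tlr3* at 3.88 ± 0.292 and *Cgas* at 3.08 ± 0.832, and last *Zbp1* at 0.136 ± 0.0662 and *Ifih1* at 0.0721 ± 0.00394. Neighbours in this order had overlapping libraries except at 2 steps, from *Adar* to *Sting1* and from *Cgas* to *Zbp1*. In rRNA-depleted libraries *Eif2ak2* was again first at 13.2 ± 1.72 and *Rigi* second at 8.12 ± 1.74, and *Ifih1* (0.0956 ± 0.0365) and *Zbp1* (0.0606 ± 0.0651) were again last. *Trex1* values are uncertain throughout, because 97.6% of the 31-base words of its exons also occur in *Atrip*, which overlaps it on the same strand.

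The main result was a loss of *Sting1* RNA in both KO clones, beside lower *Rigi* and *Zbp1*, a pattern of *Ifih1* that differed between the clones, and no called change in the other 6 genes. A gene was called when its log2 fold change was beyond 1 and its adjusted p was below 0.05 (edgeR quasi-likelihood test, Benjamini-Hochberg adjustment over all features of a table). In polyA libraries, 3 of 10 genes were called in sg5 against WT, 2 lower and 1 higher, where 6.96% and 3.18% of 15480 genes tested were called lower and higher. In sg6, 4 of 10 were called lower and 0 higher, beside 7.54% and 3.64% of all genes. Between the clones, 2 of 10 were called higher in sg5 than in sg6 and 0 lower, beside 1.36% and 1.25% of all genes. In rRNA-depleted libraries, where *Zbp1* had too few counts to be tested, 1 of 9 was called lower in sg5 and 3 of 9 in sg6, beside 4.31% and 3.59% of 13303 genes, and 0 were called higher, beside 3.04% and 2.16%.

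Separation of all 3 libraries of a line from those of another was common among genes at large and is no call. In polyA libraries, 3 of 10 genes lay wholly below WT and 1 wholly above it in sg5 (20.3% and 21.2% of all genes tested), and 6 lay below and 1 above in sg6 (20% and 22.4%). Between the clones, 5 were wholly higher and 0 wholly lower in sg5 than in sg6 (11.7% and 13.8%). In rRNA-depleted libraries, 3 of 9 lay wholly below WT in sg5 (14.9%) and 0 above (21.4%), 3 lay below in sg6 (14.2%) and 1 above (17.1%), and between the clones 1 was wholly higher (9.59%) and 0 lower (9.22%) in sg5.

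**Figure D1:**
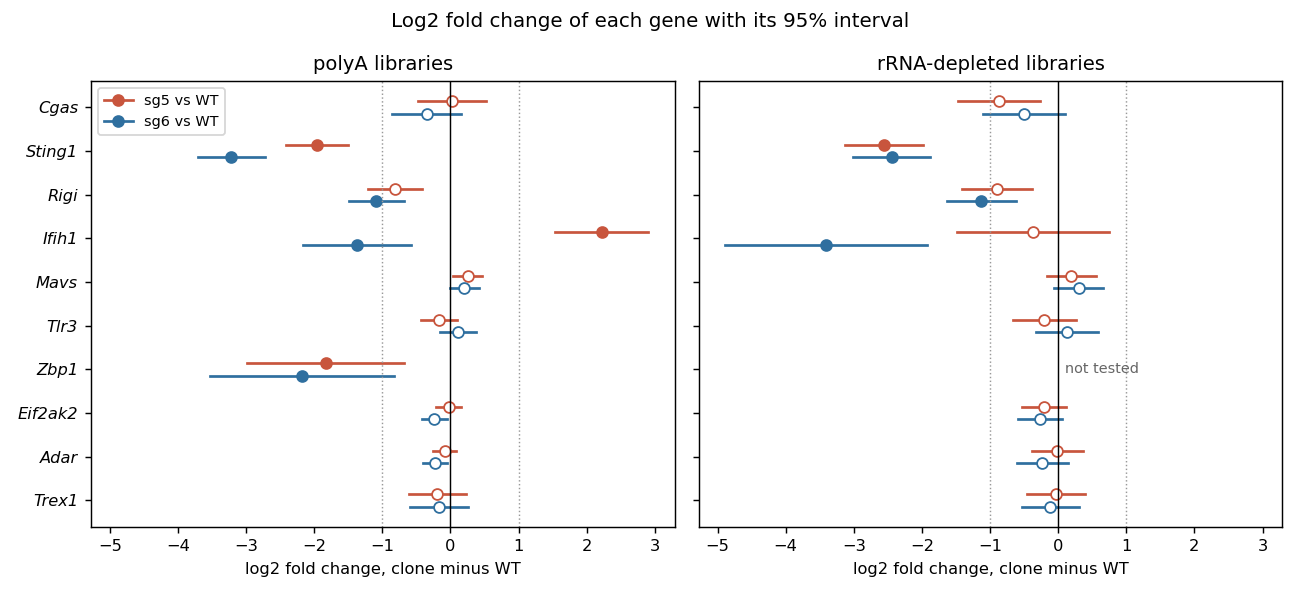
Log2 fold change of each gene in sg5 and sg6 against WT (horizontal axis), with its 95% interval, in polyA (left) and rRNA-depleted libraries (right). Filled points were called, open points were not, and dotted lines mark a log2 fold change of 1 in either direction. *Sting1* lies left of -1 in all 4 comparisons, and *Ifih1* lies on opposite sides of 0 in the polyA libraries of the 2 clones.

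*Sting1* (chromosome 18, 35733679 to 35740554, minus strand, GRCm38) encodes the adaptor that relays the cGAS signal from the endoplasmic reticulum. Its polyA level was 13.1, 13.9 and 9.98 CPM in the WT libraries, 2.41, 3.96 and 3.10 CPM in sg5, and 1.29, 1.38 and 1.30 CPM in sg6. All KO libraries were below all WT libraries, and all sg6 libraries were below all sg5 libraries. *Sting1* fell 3.90-fold in sg5 (log2 fold change -1.96 ± 0.20 SE, adjusted p = 0.000169) and 9.31-fold in sg6 (-3.22 ± 0.22, adjusted p = 1.58e-05, edgeR), and the difference between the clones itself passed the threshold (1.25 ± 0.21, adjusted p = 0.00852). Bulk libraries cannot tell fewer cells with *Sting1* RNA apart from less RNA per cell.

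In rRNA-depleted libraries *Sting1* stood at 7.79, 10.0 and 8.69 CPM in WT, 1.31, 1.45 and 1.74 CPM in sg5, and 1.25, 2.01 and 1.58 CPM in sg6. WT was again apart from both clones, but here the clones overlapped. The fall was 5.88-fold in sg5 (-2.55 ± 0.26, adjusted p = 7.94e-05) and 5.45-fold in sg6 (-2.45 ± 0.26, adjusted p = 0.000112, edgeR), and between the clones the log2 difference was -0.11 with a 95% interval of -0.69 to 0.47. *Sting1* was 1 of 849 genes called lower in both clones in polyA libraries (5.48% of genes tested) and 1 of 348 in rRNA-depleted libraries (2.62%), whereas none of the 10 was called higher in both (2.18% and 1.36% of genes), and it was called in 9 of 9 fits that each left out 1 library, in all 4 comparisons with WT.

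No tested gene beside *Sting1* was called. Of the 3 nearest protein-coding genes on each side, 5 were tested in polyA libraries, with log2 fold changes from -0.19 to 0.69 in sg5 and from -0.49 to 0.67 in sg6. *Ube2d2a*, which encodes a ubiquitin-conjugating enzyme and starts 31 kb away, had a log2 fold change of 0.56 in sg5 (adjusted p = 0.000481) and 0.49 in sg6 (adjusted p = 0.000931, edgeR), and *Cxxc5*, 88.8 kb away, of 0.69 and 0.67 (adjusted p = 0.00432 and 0.00414), in both cases above 0 and short of the fold threshold. The 3 neighbours tested in rRNA-depleted libraries, *Dnajc18*, *Ube2d2a* and *Cxxc5*, had values from 0.57 to 0.87 in sg5 and from 0.34 to 0.46 in sg6, none of them called. Over all 18 libraries, the genes whose log2 CPM, centred within each kind of library, followed *Sting1* most closely among 12937 genes were *Medag*, an adipogenesis-associated gene (Pearson r = 0.967), *C130026I21Rik* (0.966) and *Zfp985* (0.966). These correlations are a description, since the libraries come from 3 lines and any gene that separates WT from both clones follows *Sting1* in part.

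*Cgas*, whose enzyme makes the STING ligand, was not called in any comparison. Its polyA level was 15.2, 14.1 and 8.78 CPM in WT, 12.0, 14.8 and 11.8 CPM in sg5, and 11.3, 10.9 and 7.67 CPM in sg6, with all 3 lines overlapping WT. The log2 difference from WT had a 95% interval of -0.48 to 0.52 in sg5 and of -0.85 to 0.15 in sg6. In rRNA-depleted libraries it stood at 11.8, 14.6 and 10.5 CPM in WT and at 4.43, 9.08 and 6.84 CPM in sg5, which did not overlap, yet the log2 difference of -0.86 ± 0.28 missed the threshold (adjusted p = 0.118, edgeR). The sg6 libraries, at 6.98, 11.9 and 7.19 CPM, overlapped WT. A pseudogene, *Gm8093*, lies within *Cgas* on the opposite strand, and the strand setting of the counting is not given in the sources used here.

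Among the RNA sensors, *Rigi* (chromosome 4, 40203773 to 40239828, minus strand) encodes RIG-I, which detects RNA with 5′ triphosphate ends. Its polyA level was 86.2, 105 and 134 CPM in WT, 67.0, 56.5 and 61.8 CPM in sg5, and 41.8, 49.5 and 61.5 CPM in sg6. Both clones lay wholly below WT. *Rigi* fell 2.13-fold in sg6 (-1.09 ± 0.18, adjusted p = 0.00188, edgeR), while in sg5 the log2 difference of -0.81 ± 0.18 had an adjusted p of 0.00945 but did not reach the fold threshold.

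In rRNA-depleted libraries *Rigi* was again lower in every KO library, at 62.4, 43.2 and 66.0 CPM in WT, 38.7, 27.3 and 25.8 CPM in sg5, and 33.6, 18.5 and 26.6 CPM in sg6. It fell 2.18-fold in sg6 (-1.13 ± 0.24, adjusted p = 0.0191, edgeR), and the log2 difference in sg5 was -0.90 ± 0.24 (adjusted p = 0.0518). The clones did not differ from each other beyond their spread, with a 95% interval of the log2 difference of -0.12 to 0.68 in polyA and -0.28 to 0.73 in rRNA-depleted libraries. The sg6 call sits near the fold threshold: in polyA libraries the log2 value was -0.91 without WT replicate 3 and -0.97 without sg6 replicate 1, and in rRNA-depleted libraries the call was lost without WT replicate 1 (-1.01), WT replicate 3 (-1.02), sg6 replicate 2 (-0.90) or sg6 replicate 3 (-1.09). In sg5 the rRNA-depleted value was called without WT replicate 2 (-1.05) or sg5 replicate 1 (-1.07).

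*Ifih1* (chromosome 2, 62595798 to 62646255, minus strand) encodes MDA5, the sensor of long double-stranded RNA, and was the only one of the 10 called in opposite directions in the 2 clones. In polyA libraries it stood at 0.559, 0.584 and 0.623 CPM in WT (16 to 51 counts), at 4.0, 2.16 and 2.11 CPM in sg5 (342 to 634 counts), and at 0.178, 0.209 and 0.302 CPM in sg6 (12 to 17 counts). The 3 lines did not overlap at any point. *Ifih1* rose 4.67-fold in sg5 (2.22 ± 0.30, adjusted p = 0.000810) and fell 2.59-fold in sg6 (-1.37 ± 0.35, adjusted p = 0.0174), and the clones differed 12.1-fold (3.59 ± 0.33, adjusted p = 0.000257, edgeR). The fall in sg6 was no longer called without WT replicate 2 (-1.39), sg6 replicate 1 (-1.22) or sg6 replicate 2 (-1.32), whereas the rise in sg5 was called in 9 of 9 such fits and also with every library thinned to the depth of the smallest.

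The rRNA-depleted libraries showed the low level in sg6 but not the rise in sg5. There *Ifih1* had 23, 12 and 32 counts in WT, 20, 15 and 6 in sg5, and 3, 1 and 1 in sg6, or 1.01, 0.442 and 0.891 CPM, 0.770, 0.836 and 0.232 CPM, and 0.129, 0.0373 and 0.0438 CPM. The sg5 libraries overlapped WT, with a log2 difference of -0.37 and a 95% interval of -1.48 to 0.75, which lies wholly below the polyA interval of 1.54 to 2.90. *Ifih1* fell in sg6 (-3.41 ± 0.69, adjusted p = 0.0143, edgeR), and the summed 67 counts of WT against 5 in sg6 give a ratio of 11.4 (95% exact interval 4.64 to 36.2, counting error only). Without WT replicate 1 (-3.15), WT replicate 3 (-3.30), sg6 replicate 2 (-3.07) or sg6 replicate 3 (-3.15) this call was lost. Between the clones no gene of the 9 tested was called in rRNA-depleted libraries, where 0.556% of all genes were called higher and 0.925% lower in sg5 (74 and 123 genes, or 136 and 156 with a replicate block): edgeR and DESeq2 both gave 0, and *Ifih1* alone had an unadjusted p under 0.05, with a log2 difference of 3.04 ± 0.71 (adjusted p = 0.112) that was called without sg5 replicate 3 (3.44).

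Of the coding genes around *Ifih1*, the nearest on the lower-coordinate side, *Fap*, 21.7 kb away, was not called (log2 fold change -0.62 in sg5 and -0.84 in sg6, polyA), and neither was *Kcnh7*, 47.2 kb away on the other side (-0.08 and 0.04). The next tested gene, *Fign*, lies 1325.3 kb away and was called lower in sg6 in both kinds of library (-3.12 and -5.64) but not in sg5 (-0.52 and -1.05). The genes that followed *Ifih1* most closely over the 18 libraries were *Hgf*, which encodes hepatocyte growth factor (Pearson r = 0.899), *Sod3* (0.890) and *Pcm1* (0.883), again as a description.

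*Mavs*, the mitochondrial adaptor through which both RIG-I and MDA5 signal, was not called. Its polyA level was 41.5, 43.9 and 38.9 CPM in WT, 43.3, 51.9 and 53.3 CPM in sg5, and 46.5, 49.3 and 47.1 CPM in sg6, and the log2 difference from WT was 0.26 (95% interval 0.04 to 0.47, adjusted p = 0.0718) in sg5 and 0.20 (-0.01 to 0.41, adjusted p = 0.137, edgeR) in sg6. In rRNA-depleted libraries it ran from 13.5 to 19.1 CPM in WT, 18 to 20.7 CPM in sg5 and 20.5 to 21.3 CPM in sg6. *Tlr3*, which reads double-stranded RNA in endosomes, was likewise close to WT, at 18.5 to 21.1 CPM in WT, 16.6 to 20.4 CPM in sg5 and 19.7 to 24.0 CPM in sg6 (polyA). Its log2 difference from WT lay between -0.43 and 0.09 in sg5 and between -0.16 and 0.37 in sg6 (95% intervals). In rRNA-depleted libraries *Tlr3* ran from 7.85 to 13 CPM in WT, 7.81 to 10.3 CPM in sg5 and 10 to 13 CPM in sg6. The annotated *Gm45542* overlaps *Tlr3* on the opposite strand.

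*Zbp1* (chromosome 2, 173206612 to 173218923, minus strand) encodes a sensor of Z-form nucleic acids that can trigger necroptosis through RIPK3. It was near the limit of detection, with 7, 42 and 32 counts in the polyA libraries of WT (0.245, 0.481 and 0.712 CPM), 37, 14 and 21 in sg5 (0.234, 0.0611 and 0.130 CPM), and 4, 8 and 8 in sg6 (0.0592, 0.129 and 0.142 CPM). Both clones lay below WT, by a narrow margin in sg5. *Zbp1* fell 3.56-fold in sg5 (-1.83 ± 0.51, adjusted p = 0.0268) and 4.52-fold in sg6 (-2.18 ± 0.60, adjusted p = 0.0228, edgeR), and between the clones the 95% interval ran from -1.05 to 1.73.

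These *Zbp1* calls rest on few counts. In sg5 the call was lost without WT replicate 2 (-1.86), WT replicate 3 (-1.5), sg5 replicate 2 (-1.43) or sg5 replicate 3 (-1.79), and in sg6 without WT replicate 2 (-2.21), WT replicate 3 (-1.84), sg6 replicate 1 (-1.87) or sg6 replicate 2 (-2.32). With every library thinned to the depth of the smallest, the values were -1.56 in sg5 (adjusted p = 0.164) and -1.95 in sg6 (adjusted p = 0.0968, edgeR). In rRNA-depleted libraries *Zbp1* had 3, 1 and 17 counts in WT, 0, 0 and 2 in sg5, and 1, 0 and 1 in sg6. Those libraries overlapped, and the ratio of WT to the clone was 8.54 for sg5 (95% exact interval 2.09 to 75.1) and 8.91 for sg6 (2.18 to 78.4), counting error only. WT replicate 3 gave 17 of the 21 WT counts, and without it the ratios were 2.79 (0.401 to 30.9) and 2.92 (0.418 to 32.2).

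*Eif2ak2* encodes PKR, the kinase that halts translation when it binds double-stranded RNA. Its polyA level was 82.8, 93.4 and 90.6 CPM in WT, 94.6, 85.5 and 82.1 CPM in sg5, and 79.3, 74.0 and 73.4 CPM in sg6. The sg6 libraries lay just below WT, with a log2 difference of -0.24 ± 0.08 (adjusted p = 0.0530, edgeR), and sg5 overlapped WT (95% interval -0.21 to 0.16). Thus the 3 genes with the ISRE core printed above had polyA log2 values in sg6 of -1.09 (*Rigi*), -1.37 (*Ifih1*) and -0.24 (*Eif2ak2*), and in sg5 of -0.81, 2.22 and -0.03. *Gm26637* and the 5S element *n-R5s29* overlap *Eif2ak2* on the opposite strand.

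Neither of the genes that limit the ligands was called. *Adar*, whose product edits adenosines in double-stranded RNA, stood at 52.4, 55.1 and 62.2 CPM in WT, 53.5, 52.3 and 54.4 CPM in sg5, and 48.3, 48.4 and 48.1 CPM in sg6 (polyA). Its log2 difference in sg6 was -0.23 ± 0.08 with an adjusted p of 0.0490 (edgeR), far short of the fold threshold, and the 95% interval in sg5 was -0.25 to 0.09. *Trex1*, which degrades cytosolic DNA, had 8.49, 10.5 and 14.2 CPM in WT, 11, 8.54 and 9.56 CPM in sg5, and 8.71, 10.3 and 10.6 CPM in sg6, all overlapping, with 95% intervals of -0.61 to 0.23 and -0.59 to 0.26. In rRNA-depleted libraries *Eif2ak2* ran from 57.6 to 73.3 CPM in WT and from 50.9 to 64.1 CPM over both clones, *Adar* from 21.5 to 23.7 CPM and from 17 to 24.2 CPM, and *Trex1* from 7.45 to 10.6 CPM and from 7.49 to 9.47 CPM. All 3 overlapped WT in both clones, their log2 values against WT lay between -0.27 and -0.02, and none was called.

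**Figure D2:**
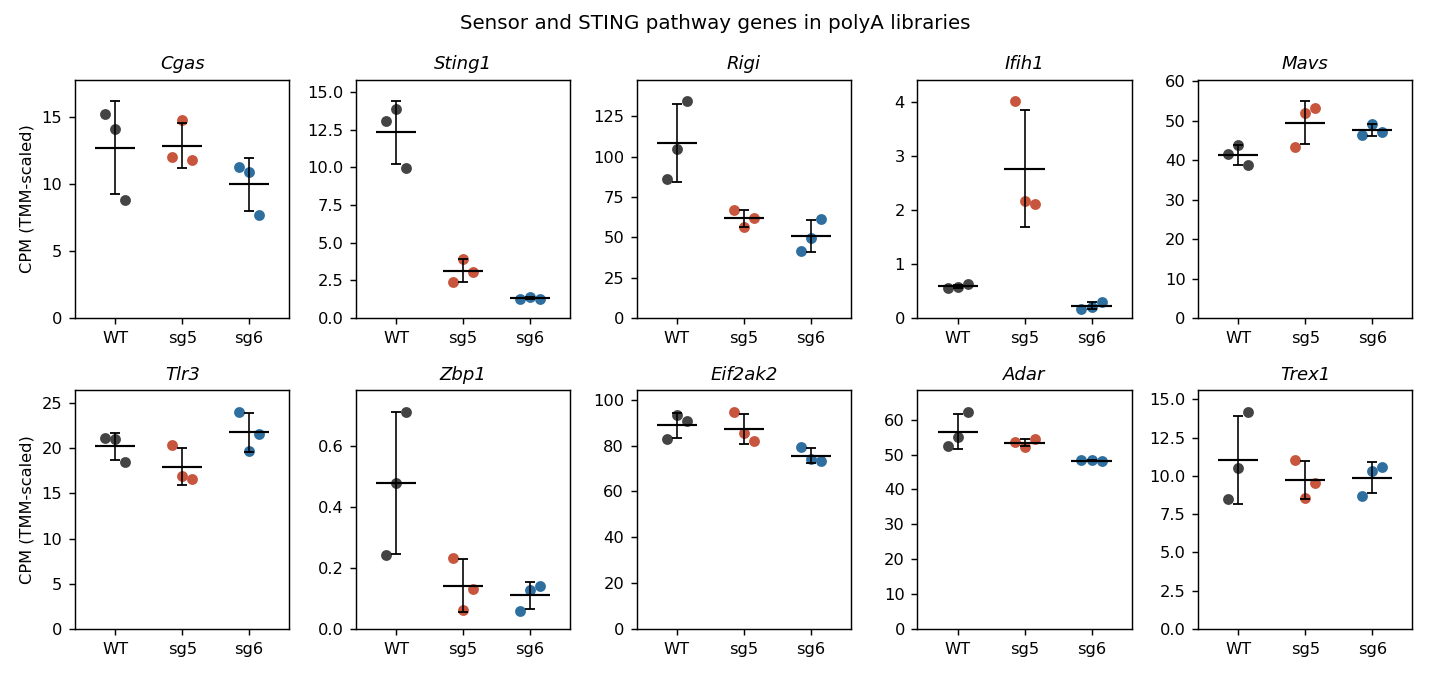
Level of each gene in the 9 polyA libraries (vertical axis, TMM-scaled CPM, each panel from 0), by line (WT, sg5, sg6). Points are libraries, long bars are means and error bars are SDs (n = 3). *Sting1*, *Rigi* and *Zbp1* lie lower in both clones than in WT, and *Ifih1* lies at 2.11 to 4.0 CPM in sg5 against 0.559 to 0.623 CPM in WT.

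**Figure D3:**
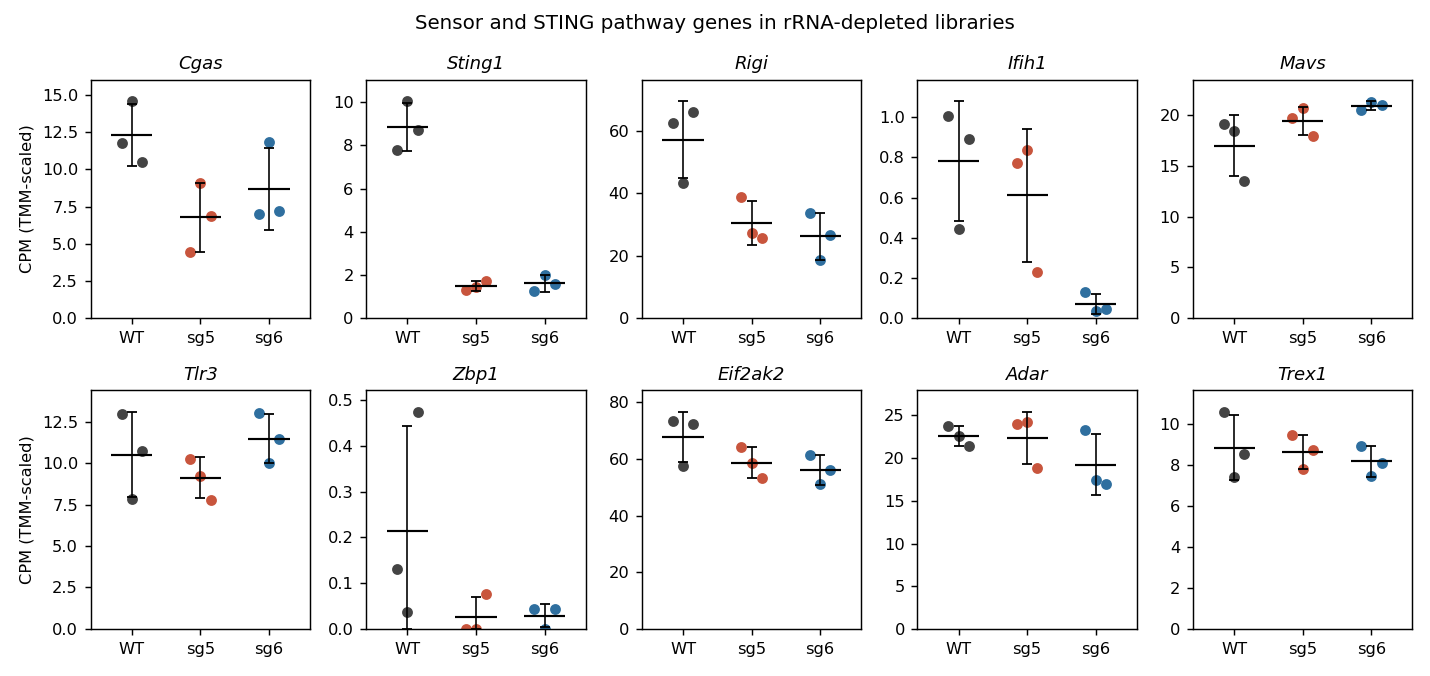
The same genes in the 9 rRNA-depleted libraries, drawn as for the polyA libraries, with SD bars stopped at 0 where they would pass it. *Sting1* separates WT (7.79 to 10.0 CPM) from both clones, while *Ifih1* in sg5 overlaps WT.

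To place the 10 genes in their pathway, 79 further genes in 8 arms were read from the same fits. The STING arm held partners and regulators of STING and other DNA sensors. Further arms were partners and regulators of the RIG-I-like receptors and of the Toll-like receptors, and effectors of ZBP1 and PKR. The rest were the OAS arm, nucleases and other limiters, the interferon receptor loop, and interferon-stimulated outputs. In polyA libraries 77 were tested, and 11 were called lower and 3 higher in sg5 (6.96% and 3.18% of all genes tested), and 15 lower and 2 higher in sg6 (7.54% and 3.64%). In rRNA-depleted libraries 68 were tested, with 11 lower and 1 higher in sg5 (4.31% and 3.04% of all genes tested), and 11 lower and 2 higher in sg6 (3.59% and 2.16%). The counts of higher calls were near the share over all genes. The median log2 fold change of the whole list was close to that of all genes, -0.01 in sg5 and -0.03 in sg6 in polyA libraries, beside -0.00237 and -0.00608 for all genes tested.

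Most of the genes called lower belonged to the OAS arm or to the interferon-stimulated outputs, 9 of 11 in sg5 and 12 of 15 in sg6 in polyA libraries. Of 9 genes of the OAS arm tested in polyA libraries, 5 were called lower in sg5 and 5 in sg6, with medians of -1.19 and -1.23. Of the 10 outputs, 4 were called lower and 1 higher (*Bst2*, 1.17) in sg5 and 7 lower in sg6, with medians of -1.38 and -2.12. The signalling arms held few calls. Of 13 genes of the STING arm none was called lower and 1 higher (*Aim2*, itself a DNA sensor) in each clone. Of 10 RIG-I-like receptor partners 1 (*Rnf125*) was called higher in each. None of 6 Toll-like receptor partners and none of 8 nucleases and limiters was called. Of 10 effectors of ZBP1 and PKR, *Ripk3* was called lower in each clone, and of 11 genes of the interferon loop, *Irf1* was called lower in each and *Usp18* in sg6 (-2.12). *Bst2* and *Usp18* are given because they complete a small count.

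In rRNA-depleted libraries 6 genes of the OAS arm and 7 outputs could be tested. Of the OAS arm 4 were called lower in each clone (medians -2.23 in sg5 and -2.92 in sg6), and of the outputs 4 were called lower in each (-2.26 and -2.82). The nucleases and limiters and the Toll-like receptor partners again held no call, and *Rnf125* was called higher in sg6 alone.

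**Figure D4:**
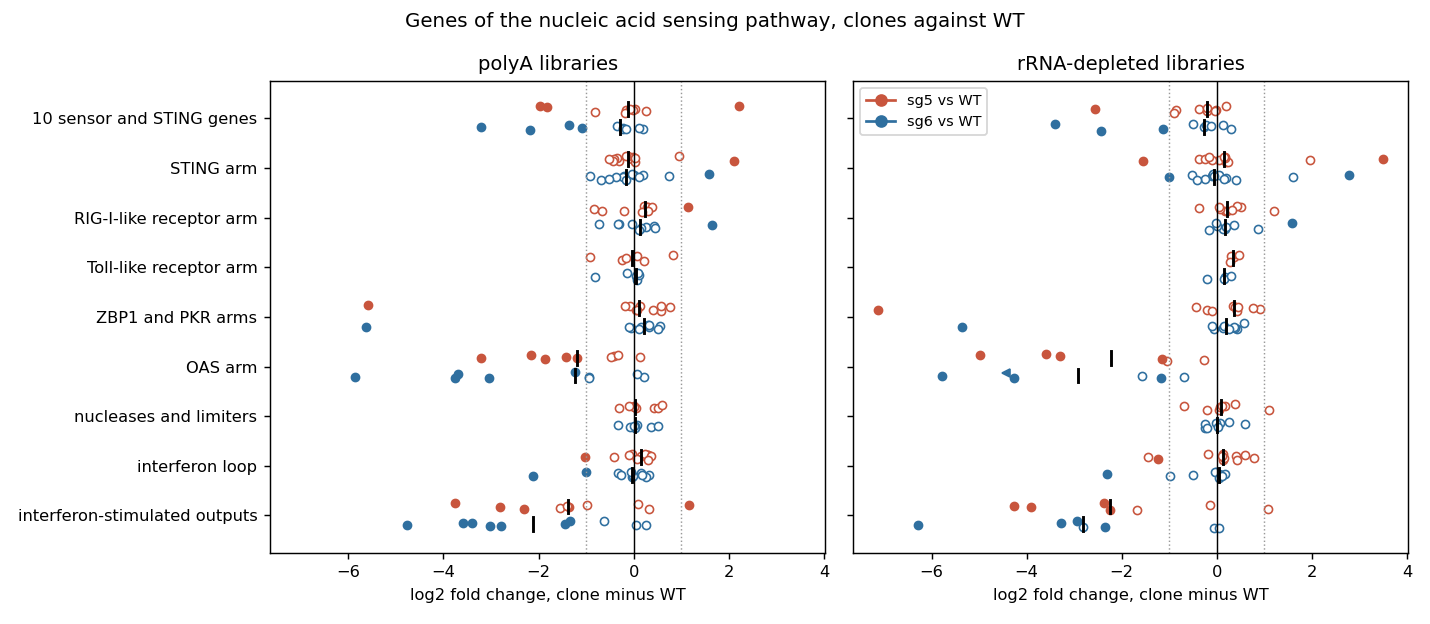
Log2 fold change against WT (horizontal axis) of each tested gene, by arm of the pathway (rows), in polyA (left) and rRNA-depleted libraries (right), with sg5 in red above sg6 in blue. Filled points were called, short black bars are medians, and the triangle is *Oas1g*, at 0 counts in sg6 and drawn at its bound. The top row holds the 10 sensor and STING genes. The called genes sit mostly in the OAS arm and the interferon-stimulated outputs, left of -1.

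Called lower in both clones were 10 pathway genes in polyA libraries (5.48% of all genes tested) and 10 in rRNA-depleted libraries (2.62%), 14 in all, and called higher in both were 2 and 1 (2.18% and 1.36%), near the share over all genes. *Ripk3*, the necroptosis kinase that ZBP1 engages, was called lower in both clones in both kinds of library. Its polyA level was 26.7, 24.1 and 15.8 CPM in WT, 0.480, 0.541 and 0.345 CPM in sg5, and 0.621, 0.482 and 0.213 CPM in sg6. *Ripk3* fell 48.4-fold in sg5 (-5.60 ± 0.36, adjusted p = 1.20e-05) and 49.7-fold in sg6 (-5.64 ± 0.37, adjusted p = 1.39e-05, edgeR), and the 2 rRNA-depleted values were -7.12 and -5.37. *Aim2*, another cytosolic DNA sensor, moved the other way, from 1.67 to 1.94 CPM in WT to 6.53 to 8.41 CPM in sg5 and 5.10 to 5.59 CPM in sg6, a rise of 4.32-fold and 3-fold (polyA). In rRNA-depleted libraries *Aim2* rose 11.3-fold in sg5 and 6.85-fold in sg6. *Sting1* was thus called lower and *Aim2* higher in both clones and both kinds of library.

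*Ifi204*, a DNA-binding partner of STING, was called lower in both clones in rRNA-depleted libraries (-1.56 and -1.01), with polyA values of -0.44 and -0.91. *Rnf125*, a ubiquitin ligase that acts on RIG-I, was called higher in both clones in polyA libraries (1.14 and 1.65) and in sg6 in rRNA-depleted libraries (1.57), with 1.2 in sg5. *Irf1*, an interferon regulatory factor, was called lower in both clones in polyA libraries (-1.02 and -1.01) and in sg5 in rRNA-depleted libraries (-1.25), with -0.98 in sg6.

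Of the OAS enzymes, which make a nucleotide second messenger when they bind double-stranded RNA, *Oas1a*, *Oas1g* and *Oas2* were called lower in both clones in both kinds of library. *Oas2* had polyA levels of 1.54, 4.52 and 6.54 CPM in WT, 1.21, 0.824 and 0.808 CPM in sg5 and 0.281, 0.289 and 0.373 CPM in sg6, with log2 values of -2.17 and -3.76. *Oas1a* had polyA log2 values of -1.19 and -3.05 and differed between the clones (1.87 ± 0.26, adjusted p = 0.00364, edgeR). *Oas1g* had 58 counts in the WT polyA libraries against 1 in sg6, a ratio of 67.1 (95% exact interval 11.6 to 2693.73), and in rRNA-depleted libraries 76 counts against 0, which makes it at least 21.5-fold lower against a floor of 3 counts over the group. The *Oas1* genes are related in sequence, and reads may have been split among them, which was not tested. *Oasl2* was called lower in both clones in polyA libraries (-1.86 and -3.69).

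Among the interferon-stimulated outputs, *Isg15* and *Mx1* were called lower in both clones in both kinds of library. *Isg15*, a ubiquitin-like modifier, had polyA levels of 3.84, 3.99 and 6.67 CPM in WT, 1.64, 0.580 and 0.715 CPM in sg5, and 1.89, 1.45 and 1.99 CPM in sg6. *Mx1*, an antiviral GTPase, had polyA log2 values of -1.35 and -1.33, and in rRNA-depleted libraries 125 counts in WT against 1 in sg6, a ratio of 106 (95% exact interval 18.7 to 4222.78). The chemokines *Cxcl10* (-2.81 and -3.40) and *Ccl5* (-3.76 and -4.78) were called lower in both clones in polyA libraries. *Ifit1* (-2.38 and -2.93) and *Ifi44* (-2.26 and -3.28) were called lower in both clones in rRNA-depleted libraries, and in polyA libraries in sg6 but not in sg5, whose libraries overlapped WT for both genes. Of the 7 outputs with a promoter window, 6 held the ISRE core, as did 4 of 6 genes of the OAS arm, 3 of 9 effectors of ZBP1 and PKR, 3 of 10 genes of the interferon loop and 1 of 5 Toll-like receptor partners. None of 11 genes of the STING arm, 7 RIG-I-like receptor partners and 6 nucleases and limiters held it. Among all 27025 genes with a window, the share was 3.99%. Interferon raises many OAS enzymes and outputs through this element, so these shares describe how the lists were made. Whether the element relates to the lower calls was not tested.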

How the data were processed

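Groups follow the sample labels, and each count table was analysed by itself. Before they were deposited, the authors made the expected counts of the polyA libraries, estimated counts per gene, with Salmon (0.8.2 in the submitters' processing notes) and tximport 1.8.0 on mm10, without normalization, and these are whole numbers. Counts per gene and per transposable element locus in rRNA-depleted libraries were made by the authors with STAR and TElocal 1.1.1 and deposited unnormalized. The strand setting is not given in the sources used here. From these tables, edgeR 4.0.16 in R 4.3.3 fitted the 9 libraries of each kind together: filterByExpr (minimum count 10), TMM scaling, and the quasi-likelihood test for each pair of lines, with Benjamini-Hochberg adjustment over 15480 genes (polyA) or 56086 features (rRNA-depleted). The test was checked on simulated counts. CPM values are TMM-scaled. Symbols were matched for 24045 of 24100 Entrez IDs, and positions are from GENCODE vM21 (GRCm38). The comparison with neighbouring coding genes was added after these data were seen. It was run for all 10 genes, and its values are given for *Sting1* and *Ifih1* alone. In polyA libraries, 1 neighbour each of *Rigi*, *Tlr3* and *Zbp1* was called in both clones, lower beside *Rigi* and higher beside *Tlr3* and *Zbp1*. Promoter windows, also those of all genes, exclude chromosome 18, where *Sting1* lies.

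The 10 genes, the pathway lists and the marker lists were chosen with earlier results of these data known. Named were all 10 genes, pathway genes called in both clones in either kind of library, the 3 genes most like each of the 10 called in both polyA clones (*Sting1* and *Ifih1*; *Zbp1* was tested in 1 table only), and *Atrx*; 1 pathway gene is counted but its values are not reported here. The alternatives tried were DESeq2 1.42.0, median-of-ratios size factors, no filter, a stricter filter asking for 10 counts throughout, fits with the 2 compared lines alone, adjusted p alone, testing the fold change against the threshold itself, thinned libraries, a replicate block, genes alone, and leaving out each library. Confidence intervals are at 95% and floors at 3 counts. Intervals of log2 differences come from the quasi-likelihood fit and include the spread between libraries. Their SE was worked out as the absolute log2 difference over the square root of the F statistic. The exact intervals of count ratios and the floors cover counting error only. Same-numbered libraries of different lines deviated together in part. The mean correlation of their deviations was 0.260 in polyA (lowest 0.0257) and 0.294 in rRNA-depleted libraries (lowest -0.229). For different numbers it was -0.127 and -0.145. Deviations were taken from the mean of each line and cancel out within it. The means for different numbers therefore largely follow from those for same numbers and add no evidence of pairing. Every same-numbered pair was over 0.1 in 3 of 6 comparisons (sg5 with sg6 in both kinds, and WT with sg6 in rRNA-depleted libraries), where the numbers may pair the samples, and not in the other 3. The fits reported have no block.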

Additional observations from a re-analysis of the deposited data

Results flagged for a closer look

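Results were picked out where sg5 and sg6 differed in a direct test of one clone against the other in polyA libraries. *Ifih1* was higher in sg5 than in sg6 by a log2 difference of 3.59 (adjusted p = 0.000257), *Oas1a* by 1.87 (adjusted p = 0.00364) and *Sting1* by 1.25 (adjusted p = 0.00852, edgeR quasi-likelihood test), each with all 3 sg5 libraries above all 3 sg6 libraries. *Bst2*, an interferon-stimulated membrane protein named after its values were seen, was also higher in sg5, by 1.11 (adjusted p = 0.00771), with its libraries apart as well. In rRNA-depleted libraries the same differences were 3.04 for *Ifih1*, -0.70 for *Oas1a*, -0.11 for *Sting1* and 1.03 for *Bst2*, none of them called. Each line had 3 libraries, too few for a test of single outlying samples.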

How the results depend on the processing

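Of the alternatives run, 96 of 111 counts of called genes stayed within 1.5 times of the reported count. This rule passes a change from 3 to 2 and does not ask which genes were called. Among values of single genes, 30 lost their call, 6 gained one and 32 changed direction, while 978 kept both. Tested against a log2 fold change of 1, the calls fell to 1 in polyA sg6 against WT (*Sting1*), 1 in polyA sg5 against sg6 (*Ifih1*) and 1 in rRNA-depleted sg6 against WT (*Sting1*), and without a filter rRNA-depleted sg5 against sg6 gained 1 (*Ifih1*, adjusted p = 0.0371, edgeR); the first test is stricter by construction, and for the second the cause was not tested. Leaving out 1 library at a time, the called genes numbered 2 to 3, 1 to 4 and 2 to 2 in polyA sg5 against WT, sg6 against WT and sg5 against sg6, and 1 to 2, 1 to 3 and 0 to 1 in the same rRNA-depleted comparisons. *Sting1* was called against WT under every alternative run, in both clones and both kinds of library.

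Direction changed only in values that were not called. The largest of these were *Ifih1* in rRNA-depleted sg5 against WT (-0.37) and *Zbp1* in polyA sg5 against sg6 (0.34). In rRNA-depleted sg5 against WT, *Adar* (-0.02) became 0.032 with DESeq2, 0.031 with median-of-ratios factors and 0.023 without a filter, and *Trex1* (-0.03) became 0.019, 0.016 and 0.00043. With 1 library left out, the ranges that crossed 0 in polyA libraries were -0.091 to 0.014 (*Eif2ak2*), -0.19 to 0.16 (*Cgas*) and -0.34 to 0.023 (*Trex1*) in sg5 against WT, -0.32 to 0.048 (*Trex1*) in sg6 against WT, and -0.22 to 0.74 (*Zbp1*), -0.12 to 0.061 (*Trex1*) and -0.000585 to 0.14 (*Mavs*) between the clones. In rRNA-depleted libraries they were -0.37 to 0.026 (*Tlr3*), -0.067 to 0.11 (*Adar*), -0.13 to 0.17 (*Trex1*) and -0.63 to 0.062 (*Ifih1*) in sg5, -0.21 to 0.083 (*Trex1*) and -0.029 to 0.36 (*Tlr3*) in sg6, and -0.00935 to 0.15 (*Eif2ak2*) and -0.25 to 0.089 (*Sting1*) between the clones.

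The lines share replicate numbers 1 to 3, and the fits with a replicate block were alternatives. With the block the called genes stayed at 3, 4 and 2 in polyA and 1, 3 and 0 in rRNA-depleted comparisons, and it changed no call among the 10 genes. Over all genes, rRNA-depleted calls higher in sg5 than in sg6 went from 74 to 136. A library matched its own number best in 15 of 18 (polyA) and 12 of 18 (rRNA-depleted) cases, a hint from the data and not from the labels. Low counts limit *Zbp1* in both kinds of library and *Ifih1* in the rRNA-depleted ones.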
